A study of Mus musculus with 2 samples.

Results

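The 10 genes described here encode the MHC class I molecules of the mouse and the machinery that loads them with peptide, namely H2-K1, H2-D1, B2m, Tap1, Tap2, Tapbp, Nlrc5, H2-T23, Psmb8 and Psmb9. They were chosen by name from the 22337 gene symbols of a single-cell RNA-Seq matrix, and all 10 were measured. Bm12 heart allografts were transplanted into C57BL/6 (B6) mice, and cells were isolated at POD 14 from 3 IL-33+ grafts (hearts 1 to 3, donors with intact Il33) and 3 IL-33- grafts (hearts 4 to 6, Bm12 Il33-/- donors bred by backcrossing). Every recipient was a B6 mouse with its own intact Il33, and the labelled difference between groups is the Il33 genotype of the donor heart. Other differences between the donor colonies cannot be told apart from it. A hashtag antibody marked the cells by heart before they were pooled and captured with a 10x Genomics 3' kit that counts unique molecular identifiers (UMIs). The matrix holds 4441 cells in 14 types annotated by the authors, among them naive (Tn), central memory (Tcm), effector and effector memory (Tem/eff), tissue-resident memory-like (Trm-like) and regulatory (Treg) T cells, conventional dendritic cells (cDCs) and monocyte-derived dendritic cells (Mo-DCs). Levels are means, for a heart and a type, of the CPM of its cells (UMIs of a gene scaled to a fixed total per cell), and the heart is the replicate. In such levels, a shift in the kinds of cell within a type and a change within each cell cannot be told apart.

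MHC class I molecules show peptides from inside the cell to CD8+ T cells and are read by inhibitory receptors of NK cells. H2-K1 and H2-D1 encode the classical heavy chains and B2m the light chain that all of them share, while H2-T23 encodes Qa-1, a nonclassical molecule seen by the NKG2A receptor. Peptides are cut by proteasomes, in which Psmb8 and Psmb9 replace constitutive catalytic subunits after exposure to interferon, are pumped into the endoplasmic reticulum by Tap1 and Tap2, and are loaded with the help of tapasin (Tapbp). Nlrc5 is the transactivator of class I genes. Bm12 and B6 mice differ in the class II gene H2-Ab1 and carry the same class I alleles, so these transcripts do not tell graft cells from recipient cells. Mouse hashtag antibodies of the kind used bind CD45 and MHC class I at the cell surface, so a cell's assignment to a heart rested partly on the product of these genes, and the effect of that was not tested.

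The genes lie in the MHC on chromosome 17, except B2m on chromosome 2 and Nlrc5 on chromosome 8. Psmb9, Tap1, Psmb8 and Tap2 stand next to each other within 34.3 kb (chr17:34181987-34216321, GRCm38). RefSeq places the starts of Tap1 (plus strand) and Psmb9 (minus strand) back to back with 225 bases between them, and the GENCODE models of both genes overlap by 212 bases. RefSeq starts were found for 8 of the 10 genes, all but Tap2 and Nlrc5. The 250 bases upstream of the RefSeq start are shown for the heavy chains and the light chain, because these 3 are the genes whose graft comparison is followed through the cell types below, and because their upstream sequences share a layout. Each runs 5' to 3' on the gene's own strand (GRCm38.p6), and capitals mark matches on either strand to GGGNNTTCC (a kappa B-type site), AANNGAAA (an interferon regulatory factor core), TGACG (the core of the X2 box) and CCAAT (the Y box).
H2-K1 (chr17:34000348-34000597, minus strand): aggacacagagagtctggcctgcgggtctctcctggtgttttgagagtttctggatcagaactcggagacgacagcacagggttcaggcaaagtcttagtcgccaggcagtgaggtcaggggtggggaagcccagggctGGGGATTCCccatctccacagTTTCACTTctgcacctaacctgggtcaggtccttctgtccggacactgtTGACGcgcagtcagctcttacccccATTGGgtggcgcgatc
H2-D1 (chr17:35262844-35263093, plus strand): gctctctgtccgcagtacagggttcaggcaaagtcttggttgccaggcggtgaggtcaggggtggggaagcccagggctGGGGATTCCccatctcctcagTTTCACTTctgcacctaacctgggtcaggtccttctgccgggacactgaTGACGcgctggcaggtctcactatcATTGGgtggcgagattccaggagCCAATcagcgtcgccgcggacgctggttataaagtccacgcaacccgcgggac
B2m (chr2:122147437-122147686, plus strand): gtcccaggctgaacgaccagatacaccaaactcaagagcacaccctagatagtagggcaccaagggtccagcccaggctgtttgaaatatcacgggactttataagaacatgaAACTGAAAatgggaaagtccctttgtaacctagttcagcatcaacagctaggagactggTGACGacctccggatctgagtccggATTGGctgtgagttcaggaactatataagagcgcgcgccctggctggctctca
All 3 windows hold TGACG followed by ATTGG with first bases exactly 25 bases apart, a spacing found in 30 of 32851 mouse windows of the same length (0.0913%). The spacing counted was the one these 3 windows hold, so the share is a description and not a test. H2-K1 and H2-D1 both carry the kappa B-type match 21 bases before the interferon regulatory factor core. In an alignment of both whole windows, 170 of 310 columns were identical (54.8%), with gap columns counted among the 310. The 2 windows are shifted against each other, since TGACG begins at -41 from the start in H2-K1 and at -101 in H2-D1. GENCODE also annotates H2-D1 transcripts that begin up to 364 bases upstream of the RefSeq start. Among the 8 genes with a window, AANNGAAA was found in 4 (21.3% of all windows), GGGNNTTCC in 2 (4.98%), TGACG in 5 (17.8%) and CCAAT in 7 (33.8%). TTCNNNGAA, the gamma-activated site, was found only in the window of Psmb8 (7.02% of all windows). These are matches of letters and not measured binding.

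The lists of B cell, NK cell, Treg, naive T cell, cDC, fibroblast, macrophage and monocyte markers were each highest in the type they name, and the T cell list in Tem/eff cells. The endothelial list was highest in fibroblasts and the neutrophil list in Mo-DCs. Of 204 Mo-DCs, 48 held at least 4 of 8 neutrophil markers, and of 375 fibroblasts, 94 (25.1%) held at least 2 of 9 endothelial markers. Of 83 unconventional T cells, 74 held at least 2 macrophage markers, and this type was kept out of averages over types. Cells held 1500 to 14977 UMIs, and hearts held 230 to 1666 cells and 908130 to 7012945 UMIs. Heart 2 had 6 cDCs and 5 monocytes, and heart 5 had 4 B cells, 9 cDCs and 7 monocytes. Il33 was read in fibroblasts at 24.3, 0 and 50.7 CPM in IL-33+ hearts and at 32.6, 73.8 and 16.1 CPM in IL-33- hearts. These values came from 7, 0 and 121 UMIs against 9, 3 and 5 UMIs. A 3' count does not tell an intact from a deleted transcript, so this does not check the labels.

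The first question was how the level of class I genes differs between the cell types of the graft. Types were annotated from expression in the same cells, so levels between types are a description without a test. The classical heavy chains and B2m were read in nearly every cell. The levels of B2m and H2-D1 spread less between types than those of the other 8 genes. B2m ranged from 3034 ± 389 CPM in B cells to 5650 ± 448 CPM in macrophages (mean ± SD, n = 6 hearts), a ratio of 1.86. H2-D1 ranged from 1051 ± 62.0 CPM in Tn cells to 1821 ± 92.5 CPM in NK cells, a ratio of 1.73. H2-K1 spread more widely, from 1676 ± 286 CPM in monocytes to 5584 ± 577 CPM in NK cells, a ratio of 3.33. In the order of H2-K1 levels, NK cells were followed by Treg (5475 ± 805), Trm-like (5298 ± 595), Mo-DCs (5145 ± 1598), NKT cells (4835 ± 331) and Tcm cells (4594 ± 490). Neighbours in this order differed by less than the spread of their difference over hearts, up to Tcm cells, which were above Tem/eff cells (3698 ± 328) in 6 of 6 hearts. Tn cells, unconventional T cells, macrophages, fibroblasts and cDCs followed without a step beyond the spread, and B cells (2779 ± 106) were above monocytes in 6 of 6 hearts.

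**Figure D1:**
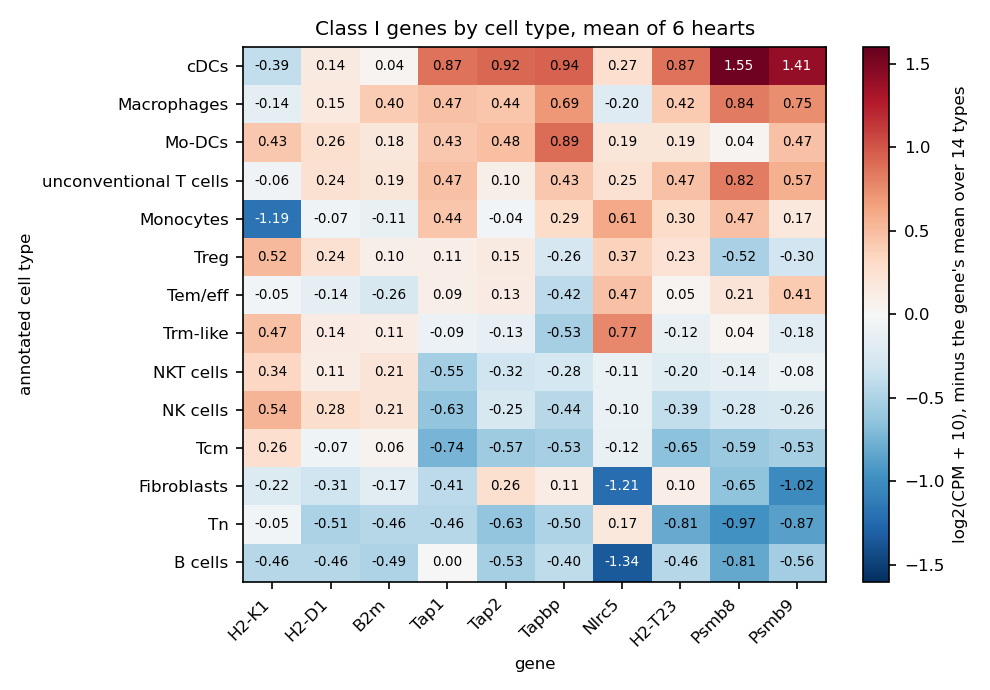
Level of the 10 class I genes (columns) in 14 annotated cell types (rows), as log2(CPM + 10) of the mean over 6 hearts minus the gene's mean over the types. cDCs are highest for 6 genes and below the mean for H2-K1 (-0.39), while monocytes have the lowest H2-K1 (-1.19).

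The loading machinery followed another order, led by cDCs. Tap1 was highest in cDCs at 299.9 ± 104 CPM and lowest in Tcm cells at 91.2 ± 19.4 CPM. Tap2 was also highest in cDCs (232 ± 123 CPM) and lowest in Tn cells (72.2 ± 27.8 CPM). Tapbp was at 787 ± 159 CPM in cDCs, 762 ± 233 CPM in Mo-DCs and 660.3 ± 87.2 CPM in macrophages, against 278 ± 63.4 CPM in Trm-like cells. For these 3 genes no neighbours in the order of 14 types differed beyond their spread, although the highest type was above the lowest in 6 of 6 hearts for each. The transporter and the chaperone thus had their highest means in cDCs, a type in which H2-K1 stood 12th of 14. cDCs were above the next type in 4 of 6 hearts for Tap1, 5 of 6 for Tap2 and 3 of 6 for Tapbp.

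The immunoproteasome subunits had the highest ratios between the highest and lowest type, with the sparse Nlrc5 close to them at 6.28. Psmb8 was at 402 ± 71.2 CPM in cDCs, above macrophages (241 ± 12.95 CPM) in 6 of 6 hearts, and at 61.7 ± 27.2 CPM in Tn cells, a ratio of 6.52 between the ends. Psmb9 was at 242 ± 67.0 CPM in cDCs, above macrophages (149 ± 22.8 CPM) in 6 of 6 hearts, and at 36.7 ± 19.8 CPM in fibroblasts, a ratio of 6.59. Relative to Psmb5 and Psmb6, constitutive subunits that the immunoproteasome subunits replace, the mean log2 ratio (CPM + 10) was 1.55 ± 0.71 in cDCs and 0.91 ± 0.49 in macrophages, both above 0 in 6 of 6 hearts. It was -0.55 ± 0.54 in Tn cells, above 0 in 0 of 6 hearts. After each cell was thinned to 1500 UMIs, the expected share of cells with a Psmb8 UMI was 39.6% in cDCs, 29.5% in macrophages, 13.9% in NK cells and 9.8% in Tn cells, against 80.7%, 72.7%, 23.2% and 16.9% unthinned.

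H2-T23 was highest in cDCs at 404 ± 53.3 CPM, above the next type in 6 of 6 hearts, and lowest in Tn cells at 119 ± 54.9 CPM. Nlrc5 was sparse and had an order of its own. It was highest in Trm-like cells (106 ± 27.5 CPM) and monocytes (93.8 ± 29.9 CPM), and macrophages (49.0 ± 22.8 CPM) stood above fibroblasts (19.3 ± 9.67 CPM) in 6 of 6 hearts. In B cells it was at 16.9 ± 18.5 CPM from 22 UMIs. The share of cells with a Nlrc5 UMI after thinning was between 3.5% (fibroblasts) and 14.7% (Trm-like).

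Over the 14 type means, which share libraries and depth, pairs of genes went together to different degrees. Pearson's r of log2(CPM + 10) was 0.94 for Psmb8 with Psmb9, 0.92 for Tap2 with H2-T23 and 0.91 for H2-D1 with B2m. It was 0.46 for H2-K1 with H2-D1, 0.44 for H2-K1 with B2m, and -0.44 for H2-K1 with Tap1. The log2 ratio of H2-K1 to H2-D1 UMIs was 1.80 ± 0.17 in Tn cells, 1.61 ± 0.13 in NK cells, 1.06 ± 0.18 in macrophages, 0.81 ± 0.18 in cDCs and 0.22 ± 0.35 in monocytes. The ratio was above 0 in 6 of 6 hearts in 13 types and in 4 of 6 hearts in monocytes. UMIs count 3' ends, so gene length does not enter, but heavy chain genes resemble each other and reads that match several genes may be lost unequally, so only differences of the ratio between types are read.

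**Figure D2:**
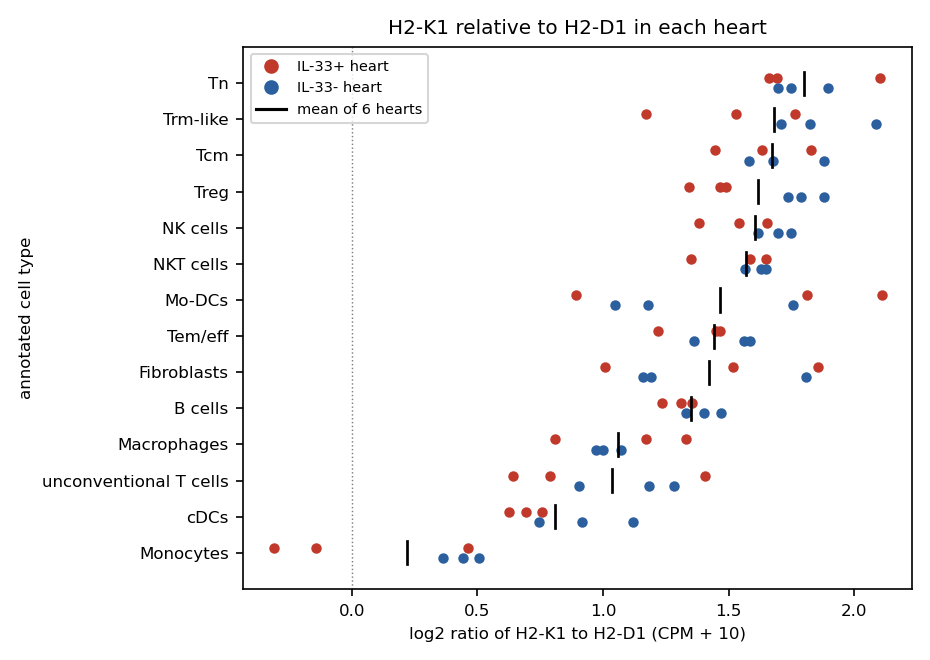
Log2 ratio of H2-K1 to H2-D1 (x axis, CPM + 10) in each annotated type (y axis), 1 point per heart coloured by graft group and a bar for the mean of 6 hearts. Tn, Trm-like, Tcm, Treg, NK and NKT cells have the highest means, and monocytes lie lowest with a mean of 0.22.

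Genes outside the set with the most alike order of types, among 3616 genes with a mean of at least 50 CPM, were found for each member by Pearson's r over the 14 type means. For H2-K1 these were Tinf2 (0.89) and H2-Q7 (0.87), the latter another class I heavy chain gene, which reached 810.3 CPM (NK cells) and was lowest in monocytes (62.7 CPM). Snx18 (0.88) was among those of H2-D1 and Lasp1 (0.86) among those of B2m. Tap1 was most like Gm2a (0.96) and Alcam (0.91), Tap2 like Atpif1 (0.92) and Ptms (0.89), and Tapbp like Csf2rb2 (0.96) and Basp1 (0.96). Psmb8 was most like Atp5c1 (0.96) and Gng10 (0.94), and Tmsb4x (0.94) was among the genes most like Psmb9. H2-T23 was most like Arl8b (0.91) and Atpif1 (0.91), and Nlrc5 like Ndufa2 (0.95) and Fyb (0.89).

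Cells with markers of another lineage differed from the rest of their annotated type. Among fibroblasts, the 94 cells with at least 2 endothelial markers had 123 CPM of Psmb8 against 48.3 CPM in the other 281, 213 against 107 CPM of Tap2, and 138 against 80.2 CPM of Tap1, each higher in all 3 hearts with at least 5 cells of both kinds. H2-K1 was at 2921 against 2384 CPM, higher in 2 of 3 hearts. Tapbp was at 399.8 against 439 CPM over all cells. Within hearts it was higher in 2 of 3, and lower in heart 3 (358 against 417 CPM). Heart 3 gave 66 of the 94 and 204 of the 281 cells. Among Mo-DCs, the 48 cells with at least 4 neutrophil markers had 2038 CPM of H2-K1 against 4623 CPM in the other 156. Psmb8 was at 27.4 against 188 CPM. Only 2 hearts had at least 5 cells of both kinds, and both genes were lower in each of them. The median depth was 1904.5 UMIs against 2391. Heart 3 gave 28 of these 48 cells.

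The main question of the design was whether class I genes differ between IL-33+ and IL-33- grafts. With limma on log2(mean CPM + 10) over 3 against 3 hearts, none of the 140 tests (10 genes in 14 types) passed a Benjamini-Hochberg adjusted p of 0.05 taken over all genes of a type, where 0.00884% of 113174 tests of all genes did. The lowest adjusted p was 0.341. At an unadjusted p of 0.05 or less there were 13 of the 140 tests, against 4.71% of all tests, and all 13 were lower in IL-33+ grafts, a combination found in 2.29% of all tests. The groups of hearts did not overlap in 25 of the 140 tests, against 9.82% of all tests. The 13 tests fell in 7 types, with 5 in cDCs, 2 each in monocytes and NK cells, and 1 each in Treg, Trm-like cells, fibroblasts and unconventional T cells. They came to 8 without heart 2 and to 6 without heart 5, the hearts with the fewest cells.

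In cDCs, all 10 genes had a lower mean in IL-33+ grafts, and 5 had an unadjusted p of 0.05 or less, where 6.79% of 7950 genes did. In 5 of the 10, each IL-33+ heart was below each IL-33- heart, as in 5.09% of all genes. Tap2 was at 112, 140 and 164 CPM in IL-33+ hearts and at 277, 445 and 250.3 CPM in IL-33- hearts, without overlap. Its log2 fold change was -1.14 ± 0.30 (SE), with an adjusted p of 0.341 by limma. H2-K1 was at 2509, 2635 and 2299.7 CPM against 3336, 3341 and 3374 CPM. The IL-33- hearts were nearly equal and all above the IL-33+ hearts, with a log2 fold change of -0.43 ± 0.14 (limma adjusted p = 0.514).

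B2m was at 3374, 4205 and 3651 CPM in cDCs of IL-33+ hearts and at 4203, 6029.9 and 4922 CPM in those of IL-33- hearts, with heart 2 and heart 4 at nearly the same level. Its log2 fold change was -0.42 ± 0.15 (limma adjusted p = 0.624). Tapbp (-0.44 ± 0.19, limma adjusted p = 0.717) was at 583 to 715 CPM against 786 to 1022 CPM, without overlap. Tap1 (-0.68 ± 0.31, limma adjusted p = 0.72) was at 138 to 352 CPM against 299.9 to 420.5 CPM, and the groups overlapped. Psmb9 (-0.52 ± 0.27, limma adjusted p = 0.776) and Nlrc5 (-0.70 ± 0.41, limma adjusted p = 0.817) did not overlap either, but were above 0.05 before adjustment. H2-D1, Psmb8 and H2-T23 had log2 fold changes of -0.20 to -0.22 and overlapping groups. The median of the 10 log2 fold changes was -0.44, beside 0.06 for all genes. The count of 5 fell to 2 without heart 5 (9 cDCs), and to 3 without heart 3. It also fell to 2 when mitochondrial and ribosomal genes were left out. The mean mitochondrial share of cDCs was 4.90, 4.93 and 5.47% in IL-33+ hearts and 4.52, 4.22 and 3.71% in IL-33- hearts, without overlap. The part of that share in these values was not tested.

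**Figure D3:**
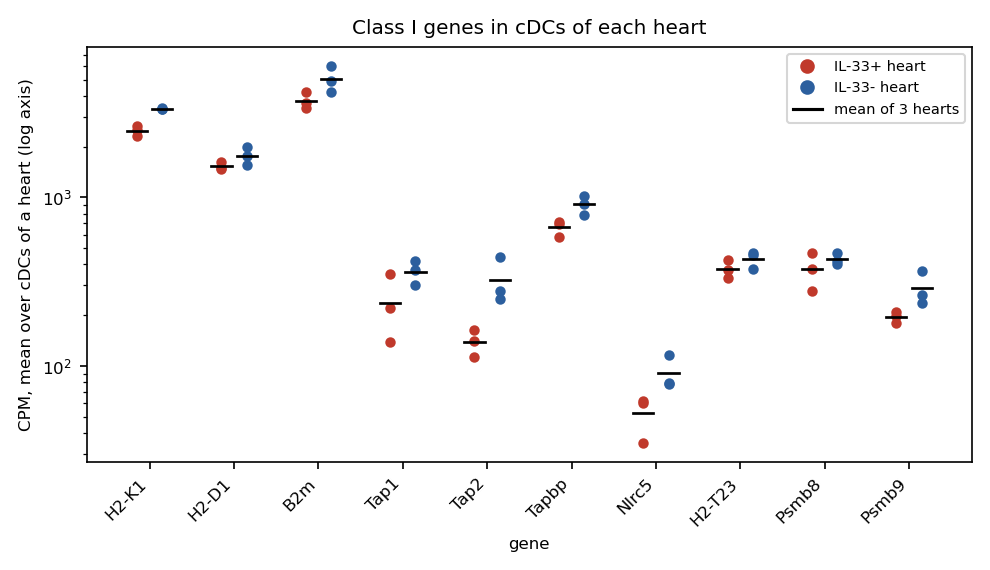
Level of the 10 genes in cDCs, as CPM on a log axis, with 1 point per heart (3 IL-33+ and 3 IL-33-) and a bar for the mean of each group. For H2-K1, Tap2, Tapbp, Nlrc5 and Psmb9 all IL-33+ hearts lie below all IL-33- hearts.

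Ccr7 is the chemokine receptor of mature, migratory dendritic cells and also of naive T cells, and it belongs to the cDC marker list. The 6 genes of that list summed to 1057 to 1623 CPM in IL-33+ and 1774 to 3267 CPM in IL-33- hearts. Ccr7 itself is part of this sum. Flt3 from the same list was higher in IL-33+ hearts without overlap, at 297, 361 and 252 CPM against 224, 222 and 246 CPM. Zbtb46 was lower without overlap, and the groups overlapped for Cd209a, Clec9a and Xcr1. Ccr7 was at 586, 514 and 273 CPM in IL-33+ hearts and at 1164, 886 and 2144 CPM in IL-33- hearts (log2 fold change -1.56 ± 0.30, limma adjusted p = 0.121). Cells with a Ccr7 UMI made up 26.3%, 50% and 31.8% of cDCs in IL-33+ hearts and 41.7%, 33.3% and 50% in IL-33- hearts. Over all hearts, the 63 cDCs with a Ccr7 UMI had 3925 CPM of H2-K1 against 2250 CPM in the 108 others, 5795 against 3083 CPM of B2m and 2092 against 1318 CPM of H2-D1, each higher in 6 of 6 hearts at a similar depth (median 6456 and 6579 UMIs). Nlrc5 was at 108 against 41.1 CPM and Psmb9 at 281 against 199.7 CPM, also in 6 of 6 hearts, while Tap1 was at 312 and 310.3 CPM.

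The graft comparison was repeated within each of these kinds of cDC, a split chosen after the values were seen. Among cDCs with a Ccr7 UMI, all 10 genes again had a negative log2 fold change, and 3 had an unadjusted p of 0.05 or less, where 5.97% of 5276 genes did. These were Tap2 (-1.67 ± 0.49, limma adjusted p = 0.408), H2-K1 (-0.67 ± 0.25, limma adjusted p = 0.622) and B2m (-0.64 ± 0.25, limma adjusted p = 0.624). Among cDCs without a Ccr7 UMI, the log2 fold change of H2-K1 was -0.070 (95% interval -0.44 to 0.30) and that of B2m was -0.035 (-0.44 to 0.37). Tap1 alone had an unadjusted p of 0.05 or less there, where 4.71% of 6856 genes did (-0.70 ± 0.32, limma adjusted p = 0.897). The split did not hold the Ccr7 level fixed, since cells with a UMI held 2228, 1028 and 857 CPM of Ccr7 in IL-33+ hearts and 2792, 2658 and 4288 CPM in IL-33- hearts. Heart 2 and heart 5 gave 3 cells each with a Ccr7 UMI, the difference between both kinds of cDC was not tested, and neither was the part of Ccr7+ cells in the values of all cDCs.

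**Figure D4:**
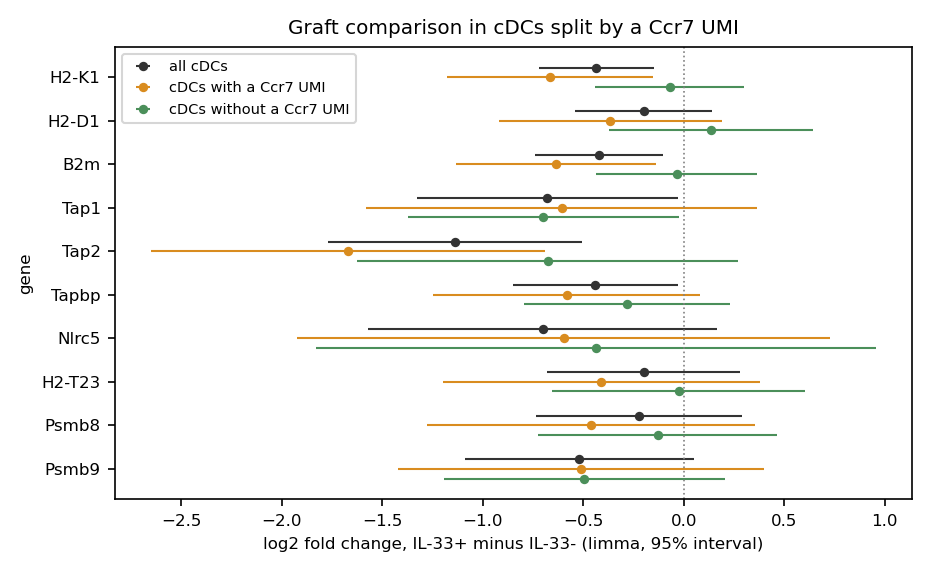
Log2 fold change of each gene (IL-33+ minus IL-33-, x axis) with its 95% interval from limma, in all cDCs, in those with a Ccr7 UMI and in those without. For H2-K1 and B2m the cells without a Ccr7 UMI lie near 0 (-0.070 and -0.035), and those with one lie at -0.67 and -0.64.

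H2-K1 had a log2 fold change below 0 in 13 of 14 types, from -0.43 in cDCs, with Mo-DCs the exception at 0.11. In Treg it was at 5056, 4299 and 5094 CPM in IL-33+ hearts and at 6034, 6513 and 5851 CPM in IL-33- hearts, without overlap (log2 fold change -0.35 ± 0.13, limma adjusted p = 0.897). In Trm-like cells it was at 5054, 4356 and 5006 CPM against 5799, 5720.5 and 5853 CPM, again without overlap (-0.27 ± 0.086, limma adjusted p = 0.923). In NK cells it was at 4835, 5703 and 4893 CPM against 5961, 6165 and 5947 CPM (-0.23 ± 0.076, limma adjusted p = 0.622), and with B2m (-0.16 ± 0.073, limma adjusted p = 0.846) it made 2 of 10 genes at an unadjusted p of 0.05 or less, where 5.82% of all genes passed. H2-D1 in the same types had log2 fold changes of 0.018 in Treg, 0.11 in Trm-like cells and -0.068 in NK cells, with 95% intervals that all held 0.

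**Figure D5:**
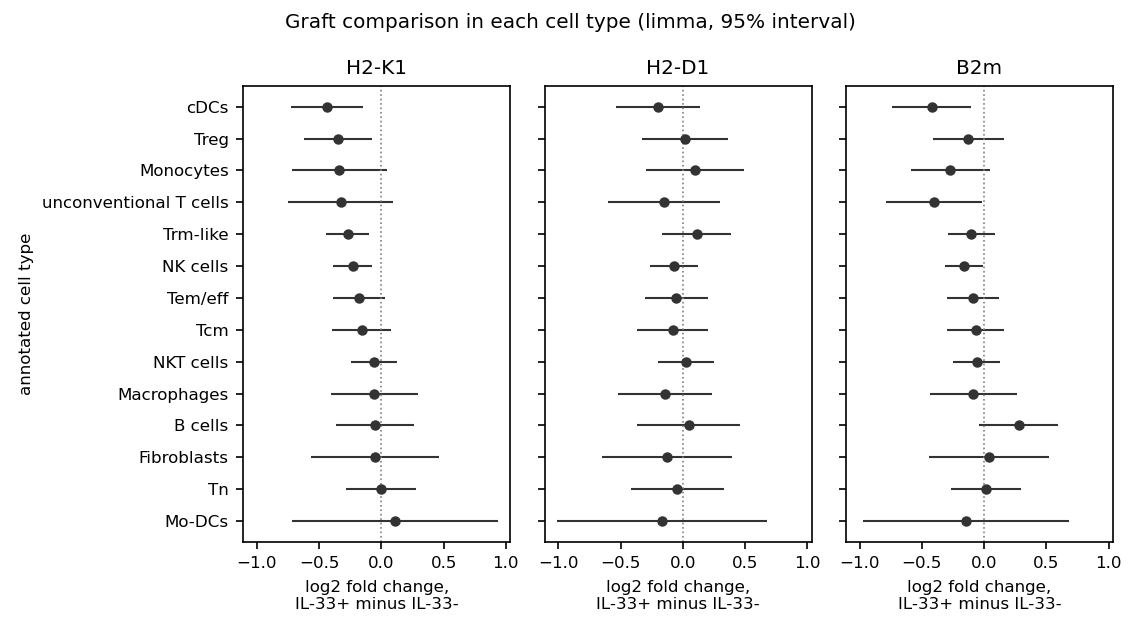
Log2 fold change (IL-33+ minus IL-33-, x axis) of H2-K1, H2-D1 and B2m in each annotated type, with 95% intervals from limma over 3 against 3 hearts. The intervals of H2-K1 lie below 0 in cDCs, Treg, Trm-like and NK cells, and no interval of H2-D1 does.

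Averaged over 13 types in each heart, H2-K1 had a log2 fold change of -0.16 ± 0.056 (limma adjusted p = 0.999), and it was the only member with an unadjusted p of 0.05 or less, where 3.27% of all genes had one. Its average log2(CPM + 10) was 11.87, 11.91 and 11.67 in IL-33+ hearts and 11.92, 11.99 and 12.02 in IL-33- hearts, and without heart 3 the log2 fold change was -0.088, above the unadjusted threshold. B2m followed with -0.093 ± 0.048 (limma adjusted p = 0.999) and no overlap between groups. The median over the 10 genes was -0.077, beside 0.014 for all genes. The average log2 ratio of H2-K1 to H2-D1 was 1.31 ± 0.16 (SD) in IL-33+ and 1.42 ± 0.074 in IL-33- hearts, a difference smaller than the spread (two-sided exact permutation test, p = 0.4, n = 3 per group, for which 0.1 is the smallest p).

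In monocytes, Tapbp was at 438, 324 and 410 CPM in IL-33+ hearts and at 693, 683 and 449 CPM in IL-33- hearts (log2 fold change -0.61 ± 0.26, limma adjusted p = 0.965). Tap1 was at 224, 136 and 119 CPM against 206, 351 and 282 CPM, with overlap (-0.79 ± 0.35, limma adjusted p = 0.965), and its value was -0.30 by limma-voom on summed UMIs. These were 2 of 10 genes, against 4.87% of all genes in monocytes. In fibroblasts, Tap1 was at 107, 47.1 and 81.4 CPM in IL-33+ hearts and at 136, 174 and 158 CPM in IL-33- hearts (-0.96 ± 0.45, limma adjusted p = 0.998). With the UMIs summed over cells the value was -0.0047, and over 15 alternatives it ran from -2.03 to -0.0047, with 9 above the unadjusted threshold. Hearts 2 and 5 had 6 and 4 fibroblasts, against 270 in heart 3, and without the cells with endothelial markers the value was -2.03. The endothelial markers summed to 1493 to 2302 CPM in fibroblasts of IL-33+ hearts and to 52.3 to 2335 CPM in those of IL-33- hearts, and their part in this value was not tested. In unconventional T cells, B2m had a log2 fold change of -0.40 ± 0.19 (limma adjusted p = 0.984), without overlap, and 10 of 15 alternatives were above the unadjusted threshold. In B cells the median of the members (0.27) was that of all genes (0.28).

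The difference between graft groups was also compared between 8 lymphoid and 4 myeloid types within hearts. All 10 members had a higher log2 fold change in the lymphoid types, with a median of 0.19 beside 0.00045 for all genes. Psmb9 alone had an unadjusted p of 0.05 or less, where 4.36% of all genes did. Its lymphoid minus myeloid value was -0.91, -0.53 and -0.54 in IL-33+ hearts and -0.99, -1.18 and -1.56 in IL-33- hearts, without overlap, and the difference was 0.58 ± 0.22 (limma adjusted p = 0.989). It turned to -0.12 when every type with a heart of fewer than 10 cells was left out, which left macrophages as the only myeloid type. The p of this difference lay above the unadjusted threshold in 4 other of 14 alternatives.

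Other genes of the pathway were counted from lists. Of 27 genes of class I loading and of other class I molecules, 251 tests over the 14 types gave 14 with an unadjusted p of 0.05 or less that were lower in IL-33+ grafts and 3 that were higher, and none was called. Of all tests, 2.29% were lower and 2.43% higher at that threshold. In cDCs, 14 of 19 tested genes had a negative log2 fold change (median -0.34, beside 0.057 for all genes), and the named ones were Psme2 and H2-Q4. Psme2, a subunit of the PA28 proteasome activator, was at 422, 378 and 245 CPM in IL-33+ hearts and at 612, 732 and 625 CPM in IL-33- hearts (-0.93 ± 0.24, limma adjusted p = 0.341). H2-Q4, a Qa heavy chain, had a log2 fold change of -1.08 ± 0.39 (limma adjusted p = 0.631). In Trm-like cells, Tapbpl, a tapasin-related editor of peptides, was at 55.4, 62.7 and 78.0 CPM against 162, 162 and 152 CPM (-1.17 ± 0.32, limma adjusted p = 0.808). In NK cells its groups did not overlap either (-1.001 ± 0.29, limma adjusted p = 0.417).

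Of 17 regulators of class I genes, 210 tests gave 6 lower and 14 higher at an unadjusted p of 0.05 or less, beside 2.29% and 2.43% of all tests, and none was called. Jak2 had a log2 fold change of -0.47 ± 0.22 in cDCs (limma adjusted p = 0.72). Ifng in Trm-like cells of IL-33+ grafts was at 116, 73.1 and 129 CPM against 57.2, 33.3 and 54.0 CPM, without overlap (0.99 ± 0.38, limma adjusted p = 0.923). Irf8 had an average log2 fold change over 13 types of 0.29 ± 0.11 (limma adjusted p = 0.999), and the groups did not overlap.

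Of 13 receptors for class I molecules, 106 tests gave 4 lower and 8 higher at an unadjusted p of 0.05 or less, beside the same 2.29% and 2.43% of all tests, and none was called. In NKT cells, 7 of 12 tested receptor genes had a negative log2 fold change (median -0.071, beside -0.041 for all genes). There the Ly49 receptor genes Klra4 (0.98 ± 0.25), Klra8 (0.76 ± 0.20) and Klra1 (0.78 ± 0.30) had positive log2 fold changes without overlap. Klrc1, which encodes the NKG2A receptor for Qa-1, was at 182, 101.2 and 183 CPM in IL-33+ hearts and at 242, 258 and 305.7 CPM in IL-33- hearts (-0.79 ± 0.22). The limma adjusted p of these 4 genes lay between 0.852 and 0.924. The summed level of 8 NK cell markers in NKT cells was 7905 to 9025 CPM in IL-33+ hearts and 4477 to 7626 CPM in IL-33- hearts. Klra8 is itself 1 of these markers, and the part of their sum in the values of these 4 genes was not tested.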

How the data were processed

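The authors aligned the reads with Cell Ranger to mm10, processed them in Partek Flow 10.0.23.0425, kept cells by their UMIs, detected genes and mitochondrial share to remove likely doublets and dead cells, and annotated them. The deposited values are log2(CPM + 1), listed for every cell beside its type, graft group and hashtag. CPM was recovered by undoing the logarithm, and UMIs from the step between low values, of which 99.94% lay within 0.05 of a whole UMI. No doublet caller was run. Hearts were mapped to groups by hashtag. Mean CPM per heart and type plus 10 was log2-transformed and compared with limma 3.58.1 (R 4.3.3, eBayes with a trend) where a gene had 10 or more UMIs over the hearts and was read in 3 hearts or more, with Benjamini-Hochberg adjustment over all genes of a comparison. The fits were tested on simulated data. Hearts are separate grafts. With 3 against 3 hearts the precision is set by the hearts, and in rare types by their few UMIs. The members and lists were chosen with earlier results of these data known. Named are the 10 members, up to 6 genes of each list with an unadjusted p of 0.05 or less and no overlap, and 2 genes most alike per member, of which some are not reported here. Alternatives changed the pseudocount, filter, summing, normalization, model, cells and hearts used. Upstream windows are those of RefSeq (GRCm38.p6), genes of GENCODE on GRCm38, the build of mm10. Python 3.11.15 was used outside limma.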

Additional observations from a re-analysis of the deposited data

Results flagged for a closer look

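For Psmb9, the difference between graft groups was higher in lymphoid than in myeloid types at an unadjusted threshold (0.58 ± 0.22 on the log2 scale, IL-33+ minus IL-33-, limma adjusted p = 0.989), with no overlap between 3 and 3 hearts. It was 1 of 10 members and did not pass the adjusted threshold. It turned to -0.12 when every type with a heart of fewer than 10 cells was left out, which left macrophages as the only myeloid type. Of the other alternatives, 4 were above the unadjusted threshold.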

How the results depend on the processing

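No paired analysis was possible because no label ties any of hearts 1 to 3 to any of hearts 4 to 6. The count of adjusted calls among member tests was 0 under every alternative except limma-voom on summed UMIs, which called 1, H2-K1 in NK cells (-0.29 ± 0.042, limma adjusted p = 0.0006, beside 0.395 to 0.973 under the others). Limma-voom called 28 tests of all genes against 10, and was not run for the averages over types. The 13 member tests at an unadjusted p of 0.05 became 7 without mitochondrial and ribosomal genes, 8 without hearts of fewer than 10 cells and 6 to 15 without 1 heart. In cDCs the 5 became 3 under quantile normalization, 2 without mitochondrial and ribosomal genes, 3 without hearts of fewer than 10 cells and 2 to 4 without 1 heart. They became 3 with and 1 without a Ccr7 UMI, alternatives added after seeing the data. For the average over types, 1 became 2 with a pseudocount of 1 and without cells of another lineage, 0 without the low-count filter and over all cells of a heart, and 0 to 2 without 1 heart. Between lymphoid and myeloid types, 1 became 0 to 1 without 1 heart. It became 0 when every type with a heart of fewer than 10 cells was left out, and the difference of Psmb9 then turned to -0.12. Macrophages were the only myeloid type left in that alternative. The median of members in the average (-0.077) was between -0.14 and -0.065 without 1 heart. H2-K1 in Trm-like cells kept its side of 0.05 under all 15 alternatives, H2-K1 in NK cells under 14 (not under quantile normalization, -0.038). The causes were not tested.

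Averages over types close to 0 changed sign. For these averages, the alternative without hearts of fewer than 10 cells left out every type with such a heart, so fewer types were averaged. Tap1 came to 0.083 with summed UMIs, 0.13 without hearts of fewer than 10 cells and 0.023 without heart 2 (-0.11 without heart 1, the lowest). Nlrc5 came to 0.20 with a pseudocount of 1, 0.076 with summed UMIs, 0.020 without mitochondrial and ribosomal genes, and 0.12, 0.096 and 0.0059 without heart 1, 4 or 6. H2-T23 came to 0.0087 without heart 1 and 0.013 without heart 4. Psmb8 came to -0.019 with a pseudocount of 50, -0.036 without hearts of fewer than 10 cells, -0.054 over all cells of a heart, and -0.012 and -0.16 without heart 1 or 5. Psmb9 came to 0.00090 with a pseudocount of 1, and was between -0.25 and 0.056 without 1 heart, the latter without heart 2.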
